A study of Homo sapiens with 12 samples.

Results

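The genes described here are 8 members of the PI3K, AKT and mTOR pathway: the PI3-kinase subunit genes PIK3CA, PIK3CB and PIK3R1, the kinase genes AKT1, AKT2 and MTOR, the mTOR partner RPTOR and the pathway brake TSC2. They were taken by name from 19974 protein-coding genes on chromosomes 1 to 22 and X. A PPARγ ChIP-seq peak was assigned to a gene when its summit lay within 50 kb of the gene's RefSeq span (GRCh38.p14, the assembly of the files' hg38 build). A peak of the pooled list of a group is called reproducible here when it overlapped, by 1 bp or more, a peak in both libraries of that group. The series mapped PPARγ, a lipid-sensing nuclear receptor, in MCF10A-NeuT cells, which are human mammary epithelial cells transformed with the NeuT oncogene. All groups carried NeuT. The wild-type group stably expressed introduced PPARγ, and the KQ group expressed the K154/155Q mutant, in which a pair of neighbouring lysines is glutamine and which the submitters class as acetylation deficient. The receptor was carried by a pMSCV-IRES-GFP retrovirus per the growth protocol, whereas the design text speaks of transfection with a Flag-tagged form. Each group had 2 ChIP libraries, and the lists of these 4 libraries and of the 2 pools were used, while the vector control and the inputs were not analysed here. The labels state no clone and no drug treatment. Whether both libraries of a group were grown separately is not stated either, so p-values measure only the spread between these libraries, which may be technical. They also disagree on whether an antibody to PPARγ or to the Flag tag was used, and receptor from the cells' own gene was not told apart from the introduced one. Gene expression was not measured in the files used here, so the labelled cell type was not checked against marker genes.

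PI3-kinase is switched on by growth factor receptors and converts a membrane lipid into the messenger PIP3. PIP3 brings AKT kinases to the membrane, where they are activated. AKT then inhibits the TSC1-TSC2 complex, which frees RHEB to activate mTOR complex 1, the driver of protein synthesis and cell growth. NeuT is an active form of the receptor tyrosine kinase ERBB2, which signals through this pathway in mammary cells.

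Wild-type PPARγ had at least 1 pooled peak near each of the 8 genes, but a reproducible peak near only AKT1, AKT2, PIK3R1 and RPTOR. There were 19 pooled wild-type peaks in the 8 windows, of which 4 were reproducible, 11 were found in 1 library and 4 in neither. With KQ, the only pooled peak lay near TSC2 and was found in 1 library. Over all protein-coding genes, 67.1% had a pooled wild-type peak within 50 kb, 37.7% a reproducible wild-type peak, 16.4% a pooled KQ peak and 2.68% a reproducible KQ peak. The 4 of 8 genes with a reproducible wild-type peak and the 0 of 8 with a reproducible KQ peak therefore stood near the background shares. Counting the pooled peaks found in wild-type library 1, whether or not library 2 had them, gave 12 peaks at 7 genes, against 54.8% of all protein-coding genes. Counting those of library 2 gave 7 peaks at 5 genes, against 48.6% of all. Among the 354 reproducible wild-type peaks of highest -log10 q, as many as KQ had in all, 1 lay near these genes, that of AKT1, against 3.25% of all protein-coding genes with such a peak. The pathway genes are also long, with a median span of 89.0 kb against 24.2 kb for all protein-coding genes, which widens their windows. Per length, the 8 windows held 10.2 pooled wild-type peaks per Mb, against 10.3 per Mb over the merged windows of all protein-coding genes. For reproducible peaks the densities were 2.15 and 3.31 per Mb.

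**Figure D1:**
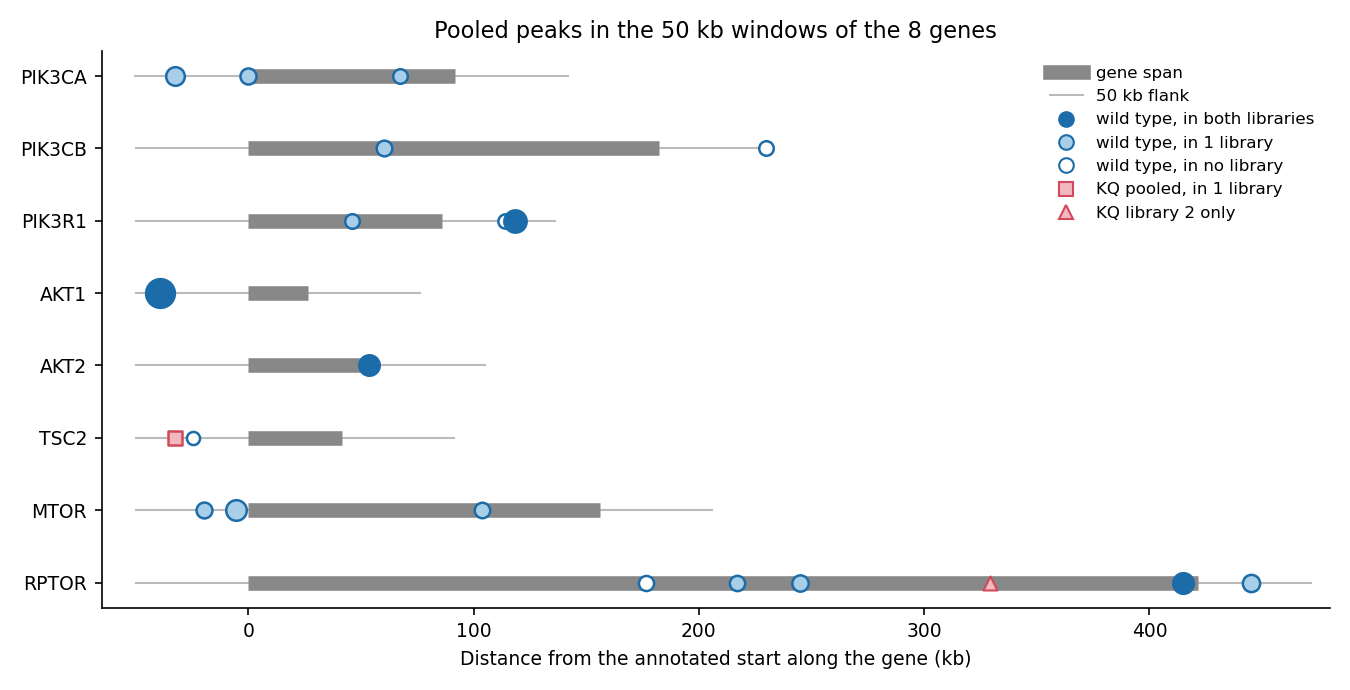
Position of each peak along the 8 genes, as distance from the annotated start in the direction of the gene (kb); grey bars are gene spans, thin lines the 50 kb flanks, circles pooled wild-type peaks with area growing with fold enrichment, the square the pooled KQ peak and the triangle a KQ peak of library 2 alone. The 4 dark circles, at AKT1, AKT2, PIK3R1 and RPTOR, are the peaks found in both wild-type libraries, and none of the 19 circles coincides with a KQ mark.

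A single one of the 19 wild-type peaks lay over an annotated promoter, that of PIK3CA, the gene of the catalytic subunit p110-alpha. Its sequence is shown because it is the only one of the 19 peaks that overlapped an annotated promoter window of these genes. The peak covered chr3:179148101-179148271 (GRCh38.p14, plus strand), ended 86 bp before the RefSeq start of the gene, and is given 5′ to 3′ with the 31 bases around the summit in capitals:

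PIK3CA promoter peak: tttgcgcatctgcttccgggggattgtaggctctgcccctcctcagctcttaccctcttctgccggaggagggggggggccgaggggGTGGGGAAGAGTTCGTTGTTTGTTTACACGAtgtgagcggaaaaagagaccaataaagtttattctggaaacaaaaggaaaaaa

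The sequence was joined from the RefSeq promoter entries of PIK3CA and of PIK3CA-DT, the divergent transcript that starts on the other side of the same peak. PPARγ with its partner RXR binds a direct repeat of AGGTCA with 1 base between the copies. No AGGTCA stood in the 171 bases on either strand, and the closest stretch to the full repeat had 4 mismatches over its 12 fixed bases. The share of RefSeq promoters with AGGTCA in a window of this length was 8.15%. The capitals contain TGTTTAC, the core that forkhead factors such as FOXO1 and FOXO3 recognise, starting 5 bases after the summit. This motif was searched, on both strands, only after the sequence had been read, and 2.02% of 35116 RefSeq promoter windows of the same length hold it. A match describes the letters and is not evidence of a bound factor.

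None of the 15 RefSeq promoters of the 8 genes (250 bases before to 50 after a start) held AGGTCA on either strand, against 13.8% of all promoters. None held the full repeat within 2 mismatches, against 2.97% of all promoters. The closest was an AKT1 promoter, the only 1 of the 15 with a match at 3 mismatches. Such matches are common, with 7325 among all 35116 promoters. All 4 reproducible peaks lay outside annotated promoters, and their own sequence was not analysed here.

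AKT1, which encodes the most widely expressed AKT kinase, had the strongest site of the 8 genes. The peak lay at 104834829 to 104835145 on chromosome 14, 39.2 kb upstream of the AKT1 start and between genes, with CEP170B the nearest protein-coding gene at 29.6 kb. Its fold enrichment over the caller's background, a ratio given by the authors for each peak, was 24.4 in the pooled list, 10.2 in wild-type library 1 and 20.4 in library 2. It ranked 46th of 25164 pooled wild-type peaks by fold, and -log10 q was 59.4. The number of ChIP tags at the summit, recovered from the authors' fold and p, was 27 in each library and 50 in the pool (95% exact Poisson interval 37.1 to 65.9, which covers counting error only). The libraries' folds thus differed at equal tag numbers, over backgrounds of 1.75 tags in library 1 and 0.373 tags in library 2. No KQ list had a peak there, and the nearest pooled KQ peak lay 208.6 kb from AKT1. Among all reproducible wild-type peaks of fold 20 to 30, 63.1% of 149 overlapped a pooled KQ peak. Wild-type library 1 had a further AKT1-window peak of fold 5.53 inside the neighbouring gene ADSS1, which was absent from the pooled list.

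AKT2, the AKT kinase with a leading role in insulin-stimulated glucose uptake, had 1 peak, and it was reproducible. It lay inside the gene, at 40231631 to 40231811 on chromosome 19, 53.6 kb from the start and near the far end of the span. The fold was 11.0 in the pool, 8.25 in library 1 and 7.60 in library 2. The libraries had 13 and 10 tags at the summit, which add up to the 23 of the pool. Among the reproducible sites the folds of the 2 libraries lay closest together at AKT2, while their tags were closest at AKT1. No KQ list had a peak within its window.

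PIK3R1 encodes p85-alpha, the regulatory subunit that stabilises and restrains the catalytic subunits. Its reproducible peak, at 68334005 to 68334226 on chromosome 5, lay 32.3 kb beyond the end of the gene, with PIK3R1 still the nearest protein-coding gene. The fold was 13.5 in the pool, 10.3 in library 1 and 7.15 in library 2, with 31, 23 and 8 tags. A weaker peak inside the gene, 46.2 kb from the first annotated start, had a fold of 4.17 in the pool and 7.13 in library 1 and was not found in library 2. The third pooled peak, 27.9 kb beyond the gene end (fold 3.84), was found in neither library. Library 2 alone had a peak 1.72 kb beyond the gene end with 4 tags, which was not in the pooled list.

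The 2 catalytic subunit genes had no reproducible peak. PIK3CA had 3 pooled wild-type peaks, and all 3 were found in library 1 only. The highest had a fold of 8.58 in the pool and 8.22 in library 1 and lay 32.5 kb before the annotated gene span, inside PIK3CA-DT. The promoter peak shown above had a fold of 5.64 in the pool and 4.36 in library 1, with 18 and 11 tags, and 39.9% of pooled wild-type peaks had a lower fold. The third lay inside the gene, 67.4 kb from the start (fold 4.15 in the pool, 3.63 in library 1). Library 2 had 1 peak in the window, also inside the gene (fold 4.72, 9 tags), which overlapped none of these.

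PIK3CB, which encodes p110-beta, a catalytic subunit that can also respond to G protein-coupled receptors, had 2 pooled wild-type peaks. The stronger, inside the gene and 60.3 kb from the start, had a fold of 5.24 in the pool and 5.77 in library 1. It had 27 tags in the pool, more than AKT2 or RPTOR, but over a background of 4.35 tags. The other, 47.4 kb from the gene (fold 4.12), lay 3.47 kb from FAIM and was found in neither library. Library 1 also had a peak 1.27 kb inside the gene from the start (fold 5.01) that the pooled list lacked, and library 2 had no peak in the window.

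TSC2 encodes tuberin, the part of the TSC complex that switches RHEB off, and it had the weakest wild-type site of the 8 genes. The single pooled peak (fold 2.79, -log10 q of 1.82) lay 24.7 kb upstream of the start, nearest to NPW, and was found in neither library. Its 15 tags stood over a background of 4.74 tags, the highest background among the 19 peaks. The pooled KQ list had a peak 32.4 kb upstream of TSC2, at 2015490 to 2015693 on chromosome 16. Its fold was 4.45 in the pool and 6.05 in KQ library 1, with 20 and 14 tags, and KQ library 2 had no peak there. This KQ peak overlapped no wild-type list, was nearest to NPW (4.21 kb), and had a higher fold than 37.1% of pooled KQ peaks.

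MTOR, the kinase at the centre of both mTOR complexes, had 3 pooled wild-type peaks, none reproducible. The strongest lay 5.29 kb upstream of the start, at 11267790 to 11267947 on chromosome 1, between genes, with MTOR the nearest protein-coding one. Its fold was 11.1 in the pool, close to that of the reproducible AKT2 and RPTOR peaks, and 7.95 in library 2, while library 1 had no peak there. The second, 19.6 kb upstream of the start, was found in library 1 only (fold 5.42 in the pool, 6.00 in the library). The third, inside MTOR and 103.7 kb from the start, was found in library 2 only (fold 5.04 in the pool, 5.94 in the library). No KQ list had a peak in the window, and the nearest pooled KQ peak lay 1873 kb from the gene.

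RPTOR encodes raptor, which recruits substrates to mTOR complex 1, and at 421.5 kb it is the longest of the 8 genes. It had 5 pooled wild-type peaks, the most of the 8, of which 1 was reproducible. That peak lay inside the gene close to its end, at 80959698 to 80959879 on chromosome 17, 415.0 kb from the start. Its fold was 11.2 in the pool, 8.42 in library 1 and 4.83 in library 2, with 19, 13 and 6 tags. The others had pooled folds between 4.65 and 6.97. Of these, the peaks 216.8 and 444.9 kb from the start were found in library 1 only, the peak 244.8 kb from it in library 2 only, and the peak 176.5 kb from it in neither. The 444.9 kb peak lay outside RPTOR, 2.07 kb from CHMP6. KQ library 2 had a peak inside RPTOR (fold 5.66, 9 tags, 329.0 kb from the start) that was absent from the pooled KQ list and from all wild-type lists.

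**Figure D2:**
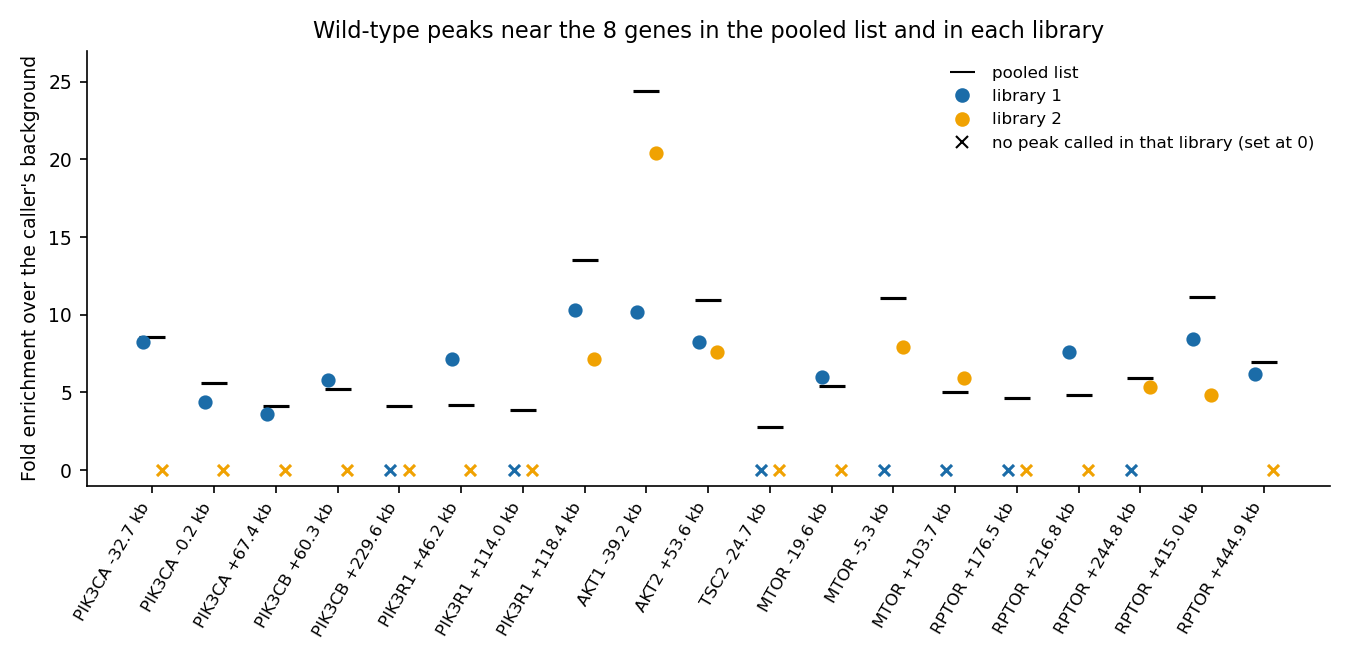
Fold enrichment (authors' ratio over the caller's background) of the 19 pooled wild-type peaks, named by gene and distance of the summit from the start; black dashes are the pooled list, dots the overlapping peak of library 1 or 2, and crosses at 0 mark a library with no peak there, which is not a measured 0. AKT1 reaches 24.4 in the pool, and dots of both colours appear only at AKT1, AKT2, PIK3R1 and RPTOR.

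The reproducible sites had higher pooled folds than the other sites of the 8 genes, with 1 exception. AKT1 and AKT2 had no other pooled site, so the comparison is across genes. The pooled folds of the 4 reproducible peaks were 11.0, 11.2, 13.5 and 24.4, and those of the 15 others lay between 2.79 and 11.1, the last being the MTOR upstream peak. No test was made, since a fold also decides whether a library passes the threshold. Over the whole pooled wild-type list, 31.9% of 25164 peaks were reproducible, and in the 8 windows 21.1% of 19 were.

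The recovered tags gave a rough view of the sites missing from 1 library. The wild-type libraries differed over their whole lists, not only at these genes. The median number of tags per called peak was 15 in library 1 and 8 in library 2, over median backgrounds of 1.41 and 0.448 tags. At AKT2, PIK3R1 and RPTOR the tags of the libraries summed exactly to the pooled tags, and at AKT1 they summed to 54 against 50. Over 7943 wild-type peaks with 1 peak in each library, sum and pool were equal in 16.1%, within 2 tags in 64.8%, and differed by a median of 2 tags, so a remainder is only approximate. Subtracting the library that had the peak from the pool left between 1 and 7 tags for library 2 at the 8 peaks found in library 1 only. At the 3 peaks found in library 2 only, 10 to 12 tags were left for library 1, more than the 7 to 9 tags of library 2 itself. At the MTOR upstream site these numbers were 12 tags left for library 1 and 9 tags in library 2. What kept these 3 sites off the list of library 1 was not tested.

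The position of the sites relative to the genes varied. Of the 19 wild-type peaks 10 lay inside one of the 8 genes (the PIK3CA promoter peak among them, because the annotated span begins with a predicted transcript at 179148126), 5 upstream of the start and 4 beyond the end. For 5 of the 19, another protein-coding gene was nearer than the pathway gene, including the AKT1 site. Of the 4 reproducible peaks 2 lay inside a gene (50%, exact Clopper-Pearson 95% interval 6.76 to 93.2%). Over all reproducible wild-type peaks within 50 kb of a protein-coding gene, 65.1% lay inside one. The nearest pooled peaks just inside and outside the 50 kb limit were the PIK3CB peak at 47.4 kb (fold 4.12) and an AKT1 peak at 70.2 kb (fold 5.58), neither of them reproducible.

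Summed over the 8 genes, both KQ libraries had fewer peaks than either wild-type library, although TSC2 had a peak in a KQ library only. The wild-type libraries had 15 and 9 peaks in the 8 windows, and the KQ libraries had 1 each. This was 12 ± 4.24 peaks per wild-type library (SD, n = 2) against 1 ± 0 peaks per KQ library (SD, n = 2), a ratio of 12. The groups did not overlap, and the exact permutation test, two-sided, gave p = 0.333, the smallest value that 2 against 2 libraries allow. The same ratio over all peaks on these chromosomes was 15.7, a difference between the groups of lists that was at least as large as in the 8 windows. In 6 of the 8 windows no KQ list had a peak, near the 81.6% of all protein-coding genes without one.

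None of the 19 wild-type sites overlapped a KQ peak of any list (0%, exact Clopper-Pearson 95% upper bound 17.6%). Of all 25164 pooled wild-type peaks 9.86% overlapped a peak of some KQ list, and of the 17131 that were not reproducible 4.47% did, both below that bound. For the 4 reproducible sites the upper bound was 60.2%, and the share over all 8033 reproducible wild-type peaks was 20.1%, so a difference of these genes from the rest was not detectable with 4 sites. The overlap share rose with fold in the whole list, being 21.3% of 1382 peaks with fold 10 to 12, the range of AKT2 and RPTOR, and 31.0% of 1205 peaks with fold 12 to 16, the range of PIK3R1. These ranges were set after the folds of the 4 sites were known. A site with no KQ peak is one below the caller's threshold there. The median background, over the called peaks of each pooled list, was 4.12 tags with KQ and 1.98 tags with wild type. The lists do not give the KQ background at the wild-type sites without a KQ peak. Whether background bears on the missing KQ peaks was not tested. The lowest number of tags of any peak was 9 in the pooled KQ list and 5 in the pooled wild-type list.

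**Figure D3:**
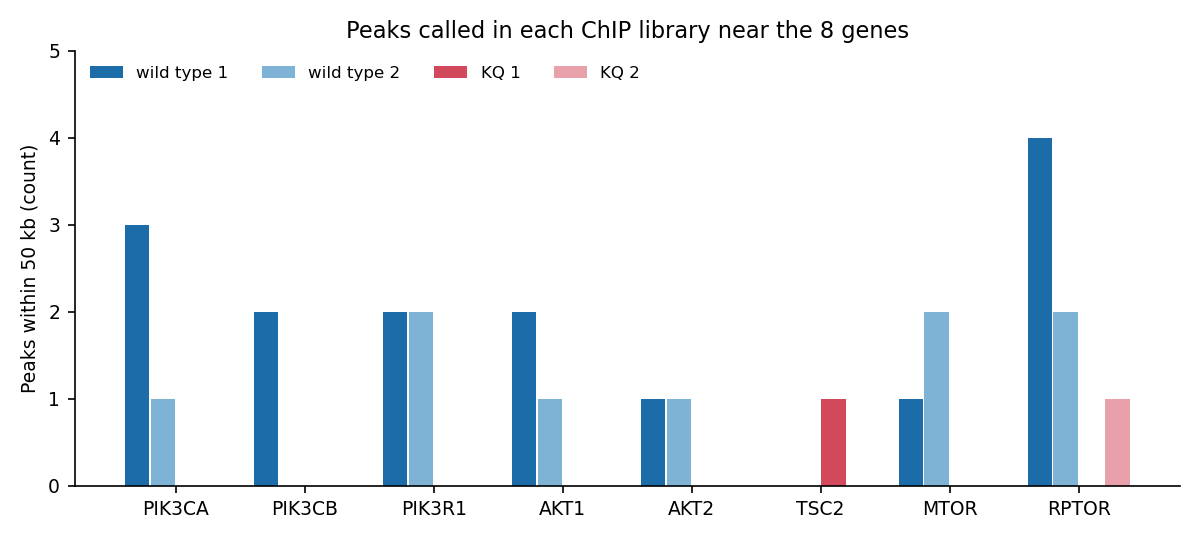
Number of peaks with a summit within 50 kb of each gene (bars from 0) in the 2 wild-type and 2 KQ libraries. Wild-type bars reach 4 at RPTOR and are missing at TSC2, and the 2 KQ bars, of 1 peak each, stand at TSC2 and RPTOR.

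A wider list of 64 further pathway genes had sites in both groups. With wild type, 35 of 64 (54.7%) had a reproducible peak and 52 had a pooled peak, and with KQ 6 of 64 (9.38%) and 17 did. The corresponding shares of all protein-coding genes are the 37.7% and 2.68% given above for reproducible peaks. For pooled peaks they are 67.1% and 16.4%. All protein-coding genes have a shorter median span (24.2 against 61.3 kb). No set test was made. For the sites of this list the nearest gene is not named, and another gene may be nearer. When each peak was given to its nearest gene only, 23 genes had a reproducible wild-type peak and 3 a KQ one. The shares of all genes were then 20.4% and 1.27%. Reproducible wild-type peaks had a density of 4.52 per Mb in the merged windows of this list, against 3.31 per Mb over all genes and 2.15 per Mb for the 8 genes.

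The receptor adaptors and PI3-kinase subunits of the wider list held its strongest site. GAB2, a docking protein that binds p85, had a reproducible wild-type peak inside the gene with a fold of 27.5 in the pool, 22.1 in library 1 and 16.4 in library 2. A pooled KQ peak lay on it and was reproducible as well, with folds of 4.88 in the pool, 5.74 in library 1 and 4.34 in library 2. Of the 6 receptor and adaptor genes 4 had a reproducible wild-type peak, and 1 had a KQ one. Of the 8 other subunit genes these numbers were 4 and 1. Among all protein-coding genes 37.7% had a reproducible wild-type peak and 2.68% a KQ one. PIK3C2B, a class II PI3-kinase, had a wild-type peak of fold 15.3 inside the gene that overlapped a KQ peak that was not reproducible. Its reproducible KQ peak, of fold 7.07, lay 10.5 kb outside the gene and overlapped another pooled wild-type peak. PIK3C3, the class III enzyme of autophagy, had a wild-type peak of fold 12.1 and no pooled KQ peak.

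Phosphatases of the pathway also had sites. PHLPP1, a phosphatase that acts on AKT, had a wild-type peak of fold 16.1 located 27.6 kb outside the gene and no pooled KQ peak. Of the 6 phosphatase genes 3 had a reproducible wild-type peak and 1 a KQ one, against 37.7% and 2.68% of all protein-coding genes. The phosphatase genes have a median span of 127.9 kb, against 24.2 kb for all.

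Around TSC2 and mTOR the wider list had KQ sites at partners of the 8 genes. RHEB, the GTPase that TSC2 inactivates, had a reproducible wild-type peak inside the gene with folds of 6.54 and 11.4 in the libraries. A reproducible KQ peak of fold 8.06 lay 5.62 kb outside the gene and overlapped another pooled wild-type peak. TBC1D7, the third subunit of the TSC complex, had a reproducible site 1.89 kb outside the gene with folds of 7.90 with wild type and 6.16 with KQ. These were the 2 of 11 genes of this step with a reproducible KQ peak, against 7 with a wild-type one. The shares over all protein-coding genes were 2.68% and 37.7%. PRKAA1, a catalytic subunit of the energy sensor AMPK, had a wild-type peak of fold 21.2 located 41.9 kb from the gene that overlapped a KQ peak. SESN2, a stress-induced inhibitor of mTOR complex 1, had one of fold 14.7 inside the gene that also did. The KQ peaks at PRKAA1 and SESN2 were not reproducible. MAPKAP1, a subunit of mTOR complex 2, had a wild-type peak of fold 14.3 inside the gene, and LAMTOR1, which anchors mTOR complex 1 at lysosomes, one of fold 13.9 located 10.2 kb outside it. Neither of these 2 genes had a pooled KQ peak.

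Among the 7 other mTOR complex subunits 4 had a reproducible wild-type peak, and among the 10 genes of the amino acid step 4 did, with 0 for KQ in both sets. Of the 4 other kinases of the AKT step 2 had one, again with 0 for KQ. Of the 12 outputs 7 had a reproducible wild-type peak, and 11 had a pooled one. Among all protein-coding genes 37.7% had a reproducible wild-type peak, 67.1% a pooled one and 2.68% a reproducible KQ one. RPS6KB1, the S6 kinase that mTOR complex 1 activates, had a reproducible KQ peak of fold 6.84 located 37.3 kb from the gene and overlapping no pooled wild-type peak. Its own highest reproducible wild-type peak, of fold 9.65, lay elsewhere in the window. GSK3A, a kinase that AKT inhibits, had a wild-type peak of fold 12.7 located 38.1 kb from the gene that overlapped a KQ peak that was not reproducible.

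**Figure D4:**
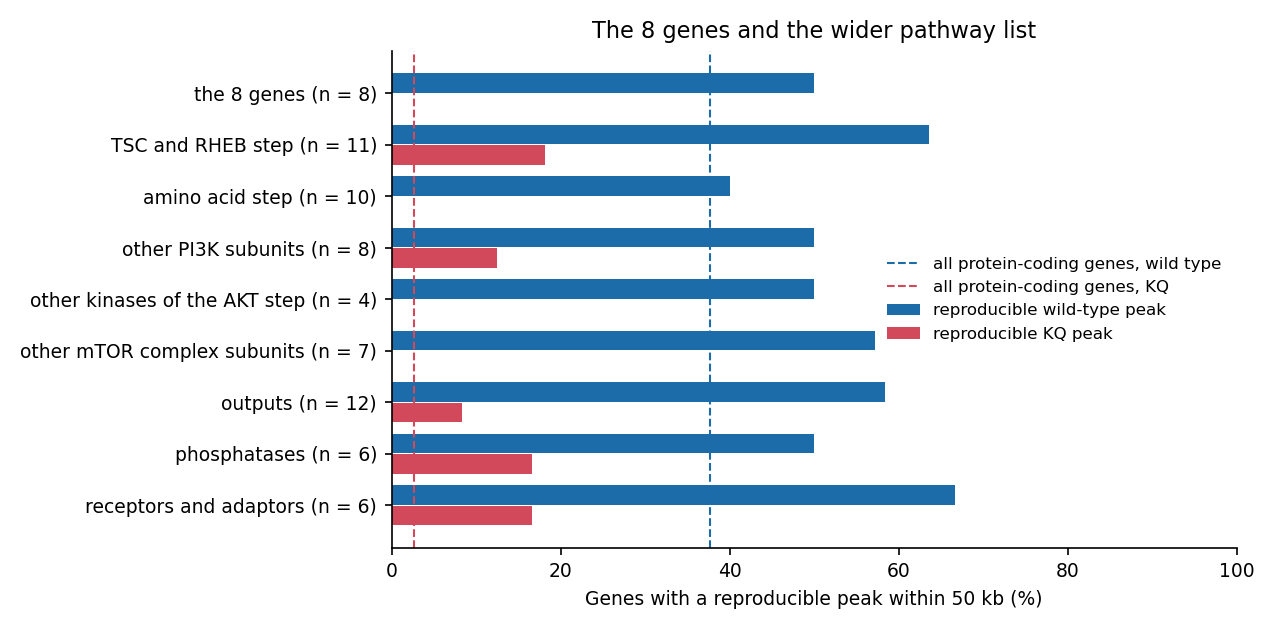
Share of genes (%) with a reproducible peak within 50 kb, for wild type (blue bars) and KQ (red bars), in the 8 genes and in each step of the wider list of 64, with the number of genes in brackets; dashed lines are the shares of all protein-coding genes. The 8 genes stand at 50% for wild type and 0% for KQ, against 37.7% and 2.68% for all genes, and the steps range from 40% to 66.7% for wild type and from 0% to 18.2% for KQ.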

How the data were processed

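The tools listed in the submitters' processing notes are Bowtie2 (version 2), MACS2, HOMER, deepTools and bedtools, with build hg38. How MACS2 was set, and whether it used the inputs, is not stated there. The deposited lists give each peak's fold, a ratio over the caller's background, its p and q as −log10 values, a score made from q, and the summit, all as the authors made them, per library and per pooled group. Peaks on chromosomes 1 to 22 and X were kept, giving 18143 and 17859 in the wild-type libraries, 1263 and 1035 in the KQ libraries, and 25164 and 2846 in the pools.

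Tags and background at each summit were solved from the deposited fold and p with the MACS2 formulas. The tags came out whole, within 0.05 tags, for 99.99% to 100% of peaks. Intervals cover counting error only. Summits were assigned to gene spans with a 50 kb margin, and start sites came from the RefSeq promoter table. The numbers of peaks in the 8 windows were tested by exact two-sided permutation of the libraries. The code was tested on simulated data (Python 3.11.15, NumPy 2.4.6, pandas 2.3.3, SciPy 1.17.1).

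The 8 genes, the wider list and the tests were chosen with earlier results of these data known. For each gene all reproducible peaks, the highest wild-type peak and all KQ peaks are named. From the wider list the 10 genes of highest wild-type fold and those with a reproducible KQ peak are named, except for some that are not reported here. Alternatives were the window, the q threshold, the overlap, the peak set, the gene assignment, the list length, the libraries and the replicate block.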

Additional observations from a re-analysis of the deposited data

How the results depend on the processing

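Of 80 recomputed values 56 kept their direction and size class, 24 moved by more than 1.5 times, and 0 reversed. The 4 reproducible wild-type peaks of the 8 genes became 2 in the 0 kb and 5 kb windows, 19 with all pooled peaks and 1, the AKT1 site, when only as many reproducible wild-type peaks were kept, by q, as KQ has. They were 7 without wild-type library 1 and 12 without library 2. The 4 genes with such a peak became 2 in the 0 kb and 5 kb windows, 8 with all pooled peaks, 1 in that shorter list, and 5 to 7 without library 1 or 2. The background shares of all genes were 13.7%, 17.5%, 67.1% and 3.25% in the first 4 of these settings, and 48.6% and 54.8% without library 1 and 2. For KQ, the 0 reproducible peaks and the 0 genes each became 1 with all pooled peaks (TSC2), and were 0 without KQ library 1 and 1 without library 2. The shares of all genes with such a KQ peak were 16.4%, 5.79% and 7.01% in these 3 settings. The 35 wider-list genes with a wild-type peak became 17 in the 0 kb and 21 in the 5 kb window, 23 with the nearest gene only and 4 in that shorter list, against 13.7%, 17.5%, 20.4% and 3.25% of all genes. The 6 wider-list genes with a KQ peak became 2 in the 0 kb window, 3 in the 5 kb window, 3 at −log10 q of at least 5, 3 with the nearest gene only and 17 with all pooled peaks. The shares of all genes in these settings were, in the same order, 0.826%, 1.09%, 1.78%, 1.27% and 16.4%. The ratio of peaks per library stayed between 9 and 16 in all its alternatives. With the replicate number as a block, the geometric mean of the ratios within each number, a different measure from the ratio of means, was 11.6 (exact sign-flip test, p = 0.5, the smallest possible). The libraries' deviations from their group means did not go together by number (r = -0.01 over 19974 genes, which are not independent), so the numbers were not taken as pairs. The share of wild-type sites overlapped by KQ stayed at 0% throughout. Outside the 100 kb window this was fixed in advance, since those settings drew on the same 19 pooled sites, none of which overlapped a KQ peak. These settings are among the 56 values that kept their class and say nothing about stability. With tag depths of 6 to 50 at the reproducible sites, counting error alone is wide. The causes of the moves were not tested, other than the smaller or larger sets that each setting makes.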
